A study of Homo sapiens with 9 samples.

Results

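Transcript levels of hTERT-RPE1 cells grown on a soft gel were set directly against those of the same line after knockdown of PIP4K2B on stiff glass, in 6 of the 9 libraries of the series. hTERT-RPE1 is a line of human pigment epithelial cells of the retina, immortalised with telomerase. In the knockdown condition (sh_PIP4K2B) cells carried 1 of 3 different hairpins against PIP4K2B and grew on glass coated with fibronectin, with 1 library for each of hairpins #1, #2 and #3. In the soft condition (Soft, 3 libraries) cells carried the empty pLKO vector and grew on a hydrogel of 2.3 kPa with the same coating. The remaining 3 libraries (Control), empty vector on coated glass, served as a reference level. All cells had been transduced and spent 24 h on their surface. The treatment label calls the empty vector of Soft and Control a Ctrl shRNA, and the study's methods give the empty vector for both. Soft and sh_PIP4K2B thus differ in substrate and in hairpin at once, while Control differs from each of them in 1 of these. The comparison asks which genes separate the response to softness from the response to hairpins against the kinase. Because Soft and Control carried the empty vector, loss of the kinase and other effects of carrying a hairpin cannot be told apart. No source states that the libraries of a condition came from separate cultures, so p-values measure the spread between these libraries. This spread was pooled over all conditions, and for sh_PIP4K2B it includes the differences between hairpins.

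Cells pull on the matrix through integrins and actomyosin. On a stiff surface the coactivators YAP and TAZ gather in the nucleus and, with TEAD factors, switch on genes such as CTGF and ANKRD1, whereas on a soft surface they stay in the cytoplasm. PIP4K2B is a kinase that turns the lipid phosphatidylinositol 5-phosphate into phosphatidylinositol 4,5-bisphosphate, and part of it is found in the nucleus. The tumour suppressor p53, which recurs below, switches on genes that halt the cell cycle, repair DNA or trigger cell death.

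The targeted gene was checked first. PIP4K2B lies on chromosome 17 of GRCh38, from 38765691 to 38800126 on the minus strand. Its level was 48.4, 40.9 and 36.6 CPM (counts scaled by TMM to a common library size) with hairpins #1, #2 and #3, and 119, 122 and 127 CPM in Soft libraries 1, 2 and 3. These orders are kept for every set of 3 values below. The 2 conditions did not overlap, and Soft was at the level of Control (122 ± 2.26 CPM, SD, n = 3). In Soft minus sh_PIP4K2B, the direction of every fold change given here, the difference was log2 fold change 1.54 with SE 0.12, adjusted p = 2.6e-05 (edgeR, quasi-likelihood test with Benjamini-Hochberg adjustment). The paralogs PIP4K2A and PIP4K2C overlapped between the conditions, with log2 fold changes of 0.17 (95% interval -0.56 to 0.90) and -0.09 (-0.57 to 0.40). For PIP4K2A the hairpins ran over 24.5, 46.7 and 80.3 CPM.

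Among the 26475 genes measured, 13784 had enough counts to be tested, in 1 edgeR fit over the 9 libraries. At an adjusted p below 0.01, 4135 genes (30.0%) differed between the conditions, of which 1998 (14.5% of those tested) were higher and 2137 (15.5%) lower in Soft. Scaled by upper quartile instead of TMM, the split was 2288 higher and 1841 lower. The difference reached 2-fold for 1168 of the higher and 963 of the lower genes, and 4-fold for 342 and 178. Without Soft replicate 1, 2 or 3 the number called was 2378, 2395 and 2350. Depth per library ran from 19217346 to 24020799 counts in total, and in these bulk samples fewer cells expressing a gene and less RNA per cell cannot be told apart. In all but 2 of the 4135 called genes, CCND2 and DDIT3, the Soft libraries lay wholly above or wholly below the hairpin libraries. The call of CCND2 was lost without Soft replicate 1, 2 or 3 (adjusted p = 0.03, 0.032 and 0.025) or Control replicate 1, 2 or 3 (adjusted p = 0.013, 0.012 and 0.013) or hairpin #2 or #3 (adjusted p = 0.015 and 0.019), and that of DDIT3 without Soft replicate 1, 2 or 3 (adjusted p = 0.034, 0.013 and 0.033) or Control replicate 1, 2 or 3 (adjusted p = 0.014, 0.013 and 0.014) or hairpin #1 or #3 (adjusted p = 0.019 and 0.021). Among all genes tested the same was true of 3763 above (27.3%) and 3675 below (26.7%), which are the shares for counts of genes that lay apart. Counts of called genes in the lists below stand against 14.5% higher and 15.5% lower, or 30.0% in either direction. The median log2 fold change of all genes tested was -0.03.

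**Figure D1:**
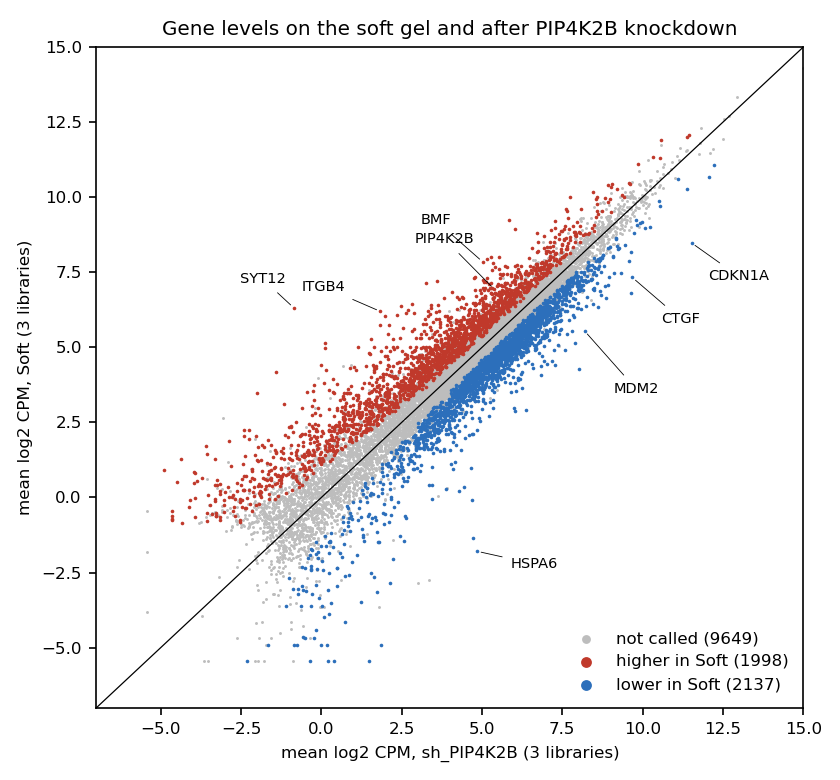
Mean log2 CPM of each of the 13784 genes tested in the 3 sh_PIP4K2B libraries (x axis) and the 3 Soft libraries (y axis), with the line of equal levels. Red points are the 1998 genes called higher in Soft, blue points the 2137 called lower and grey points the rest. CDKN1A, MDM2, CTGF and HSPA6 lie below the line, and SYT12, ITGB4, BMF and PIP4K2B above it.

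The 3 hairpins did not give the same profile. The median SD of log2 CPM between libraries was 0.36 in sh_PIP4K2B, 0.074 in Soft and 0.081 in Control, and the fit shares 1 estimate of spread among the conditions. Pooled with the narrower Soft and Control libraries, the hairpin spread can be understated, so SEs, intervals and p-values can be too small. With the 6 libraries of Soft and sh_PIP4K2B alone, a fit that also had fewer libraries, 2183 genes were called. At least a 2-fold difference from the Soft mean was seen for 3997 genes with hairpin #1, 2893 with hairpin #2 and 3308 with hairpin #3. Together these were 5876 genes, of which 1316 (22.4%) were past 2-fold in the same direction with all hairpins, 812 higher in Soft and 504 lower. Over the 500 most variable genes the root mean square log2 distance between a Soft and a hairpin library was 3.3 to 3.56, against 2.09 to 2.35 between hairpins and 1.63 to 1.71 between Soft libraries. Control libraries were 2.17 to 2.53 from hairpin libraries and 3.57 to 3.76 from Soft libraries. The 500 genes were picked by their variance over these same libraries, which favours genes that differ between conditions. With Control as the reference level, its mean lay between the means of the 2 conditions for 2559 of the 4135 called genes. For 1421 others sh_PIP4K2B was the nearer to Control, and for 155 Soft was. The 3 Control libraries lay clear of both conditions and between them for 465 genes with Soft above and 528 with Soft below. No test was made of these positions.

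The genes farthest above in Soft were mostly close to silent on glass, with or without a hairpin. SYT12, a synaptotagmin, was at 0.645, 0.193 and 1.14 CPM with the hairpins, at 0.482 ± 0.244 CPM in Control (SD, n = 3) and at 78.3, 84.5 and 76.7 CPM in Soft (log2 fold change 6.92 with SE 0.41, adjusted p = 8.1e-06, edgeR). SLC14A1, a urea transporter, went from 0.506, 0.241 and 0.346 CPM to 19.1, 16.8 and 18.9 CPM. PPL, which codes for the desmosomal protein periplakin, went from 0.322, 0.241 and 0.148 CPM to 10.3, 11.9 and 11.5 CPM. All 3 genes were thus near the floor, a count of 3 or 0.131 to 0.148 CPM per library, in at least 1 hairpin library, and their fold changes are less certain than their levels in Soft. PTGIS, the prostacyclin synthase, differed on both sides of Control, with 0.783, 1.97 and 0.741 CPM in sh_PIP4K2B, 3.26 ± 0.712 CPM in Control (SD, n = 3) and 35.5, 33.4 and 36 CPM in Soft (log2 fold change 4.90 with SE 0.33, adjusted p = 1.6e-05, edgeR). The same order held for RARRES1 (0.414, 0.915 and 0.939 CPM, then 2.21 ± 0.434 (SD, n = 3), then 12.3, 10.5 and 11 CPM) and for the protease inhibitor SPINT1 (0.645, 0.337 and 0.346 CPM, 1.09 ± 0.124 (SD, n = 3) and 8.62, 7.81 and 9.57 CPM). Of the other genes at the top by this ranking, MAOB, HR, CLDN2, MEDAG, COLEC12, PECAM1, CYTIP and SEPT4, only COLEC12 and CYTIP passed 10 CPM in Soft, and ATP8B3, STRA6 and LMTK3 were also named for having Soft highest, Control between and sh_PIP4K2B lowest.

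The genes farthest below in Soft included HSPA6, an inducible HSP70 chaperone. HSPA6 was at 126, 10.5 and 17.9 CPM with the hairpins, 1.03 ± 0.0243 CPM in Control (SD, n = 3) and 0.365, 0.19 and 0.268 CPM in Soft (log2 fold change -7.51 with SE 1.12, adjusted p = 6.4e-04, edgeR). KBTBD8, a substrate adaptor of a ubiquitin ligase, was at 25.5, 9.34 and 42.6 CPM, 6.3 ± 1.44 (SD, n = 3) and 1.46, 1.05 and 1.25 CPM, and its groups did not overlap. The 7SK RNA gene RN7SK, which holds the elongation factor P-TEFb inactive, was at 18.6, 18.5 and 49.5 CPM, 4.77 ± 0.987 (SD, n = 3) and 1.23, 0.762 and 0.805 CPM. This RNA normally carries no poly(A) tail, while the libraries were made from mRNA, and the part of poly(A) selection in its level was not tested. PTCHD4 showed the same order (8.75, 17.9 and 20.1 CPM, 4.04 ± 0.465 (SD, n = 3), 1.23, 1.48 and 0.939 CPM). KRTAP2-3, a hair keratin-associated protein, was at 53 ± 2.91 CPM in Control (SD, n = 3), at 9.9, 36.4 and 52 CPM with the hairpins and at 0.182, 0.619 and 0.447 CPM in Soft. LOC103021295, first by the fitted fold change, had no count in the Soft libraries and 2.79 CPM on average with the hairpins, at least 19.6-fold more than a count of 3 in a Soft library would give. ANKRD20A12P had a single count in all of Soft, and STYK1, PVRL4, MMP1, LIPH and HIST1H3D were below 0.3 CPM in each Soft library.

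Targets of p53 were the list with the greatest share lower in Soft. Of 34 targets 33 were tested, and 25 were lower in Soft and 0 higher, against 15.5% lower and 14.5% higher among all genes. The median log2 fold change of the list was -1.66, and the medians against hairpins #1, #2 and #3 taken singly were -1.43, -1.88 and -1.40. Against Control the list had a median of 1.06 in sh_PIP4K2B and -0.42 in Soft, where all genes tested had 0.05 and 0.01. The 2 comparisons with Control share its libraries, here and below. CDKN1A codes for the CDK inhibitor p21. It was at 5866, 3888 and 1118 CPM with the hairpins and 342, 372 and 355 CPM in Soft, with 765 ± 18 CPM in Control between them (SD, n = 3). The 3 hairpins differed over a wide range but did not reach down to Control or Soft (log2 fold change -3.35 with SE 0.48, adjusted p = 5.6e-04, edgeR). MDM2, the ubiquitin ligase that degrades p53, was far more even, at 342, 280.3 and 259.6 CPM and 46.7, 46.6 and 47 CPM, around 141 ± 11.7 CPM in Control (SD, n = 3; log2 fold change -2.65 with SE 0.13, adjusted p = 3.5e-06, edgeR). BTG2, an antiproliferative factor, was at 84.6, 94.5 and 71.5 CPM against 7.39, 7.71 and 7.6 CPM (log2 fold change -3.46 with SE 0.13, adjusted p = 1.3e-06, edgeR), and TIGAR, a regulator of glycolysis, at 137, 141 and 79.5 CPM against 17.1, 17.3 and 16.7 CPM (log2 fold change -2.81 with SE 0.21, adjusted p = 2.5e-05, edgeR). SESN1, a sestrin of the stress response, was at 72, 93.4 and 40.3 CPM against 13.9, 13 and 15 CPM, with Control close to Soft (15.8 ± 0.776 CPM, SD, n = 3). GDF15, a stress cytokine, was also lower in Soft (-3.36, adjusted p = 0.0011, edgeR) but did not exceed 3 CPM in any library. Of the 8 targets not called, TP53INP1 overlapped between the conditions, with 133, 42.8 and 36.1 CPM in sh_PIP4K2B and 42.6, 45.8 and 42.4 CPM in Soft (-0.69, 95% interval -1.62 to 0.23).

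**Figure D2:**
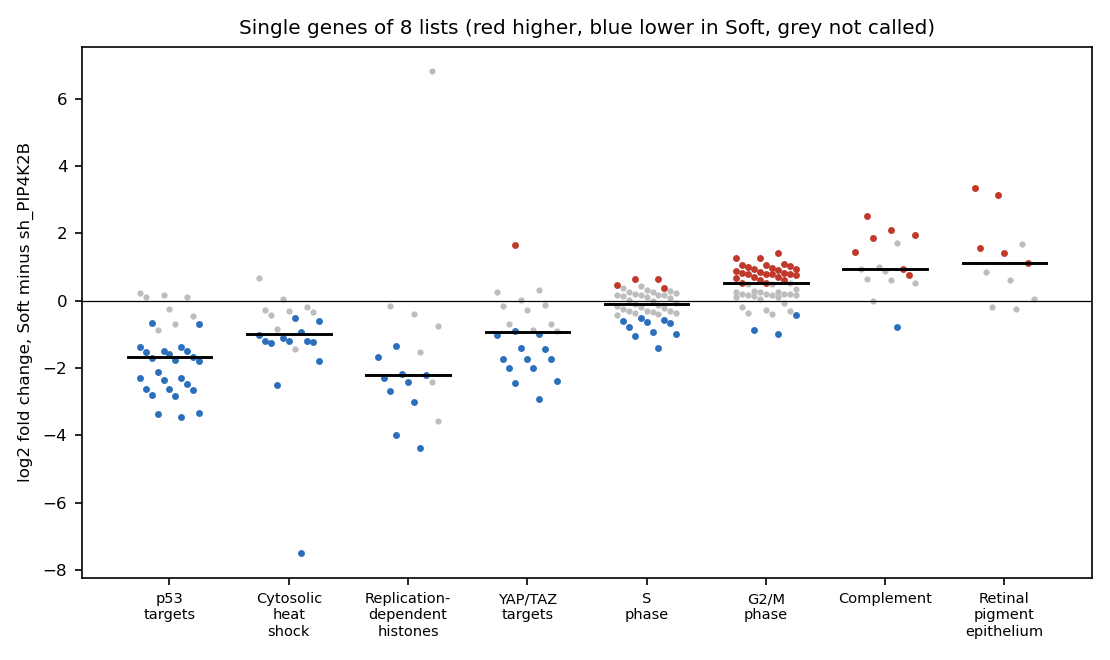
Log2 fold change (Soft minus sh_PIP4K2B) of each tested gene in 8 lists, 1 point a gene, with the list median as a bar. Blue points were called lower and red points higher in Soft at an adjusted p below 0.01 (edgeR), and grey points were not called. The p53 targets, heat shock genes, histones and YAP/TAZ targets lie mainly below 0, and G2/M, complement and pigment epithelium genes mainly above it.

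Cell death genes of the BCL2 family were called in both directions. Of 15 tested 2 were higher and 5 lower in Soft (46.7% called), with a median of -0.19. The pro-apoptotic members BMF and BCL2L11 (BIM), which bind and block survival proteins, were the higher ones. BMF was at 26.7, 36 and 35.8 CPM with the hairpins and 226, 233 and 231 CPM in Soft, both above the 4.9 ± 0.295 CPM of Control (SD, n = 3; log2 fold change 2.81 with SE 0.13, adjusted p = 3.3e-06, edgeR). BCL2L11 was at 11.1, 10.4 and 10.3 CPM and 51.2, 46.1 and 46.7 CPM, with Control lower still (4.17 ± 0.61 CPM, SD, n = 3; log2 fold change 2.17 with SE 0.13, adjusted p = 8.1e-06, edgeR). The pro-apoptotic p53 targets BBC3 (PUMA) and PMAIP1 (NOXA) were lower in Soft. BBC3 was at 33.7, 34.1 and 35.1 CPM against 13.5, 13 and 13.5 CPM, with 6.99 ± 0.391 CPM in Control (SD, n = 3; log2 fold change -1.37 with SE 0.10, adjusted p = 2.5e-05, edgeR), and PMAIP1 at 40.1, 33.7 and 49.3 CPM against 15.5, 17.3 and 15 CPM (log2 fold change -1.36 with SE 0.17, adjusted p = 2.9e-04, edgeR). The survival gene BCL2L1 was at 275, 336 and 293 CPM against 142, 148 and 149 CPM (log2 fold change -1.04 with SE 0.11, adjusted p = 1.0e-04, edgeR). Each of these 5 genes had no overlap between the conditions, and its call held when each library in turn was left out.

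Many genes of the G2 and mitotic phases were higher on the soft gel than after knockdown. Among 56 tested G2/M genes 28 were higher in Soft and 3 lower, with a median of 0.52 and medians of 0.63, 0.36 and 0.58 against hairpins #1, #2 and #3. Among 46 tested S phase genes 4 were higher and 10 lower (30.4% called, near the 30.0% of all genes), with a median of -0.11. Set against Control, the G2/M list had a median of -0.85 in sh_PIP4K2B and -0.26 in Soft, whereas the S phase list had -0.86 and -0.90. PLK1, a mitotic kinase, was at 50.3, 62.9 and 44.9 CPM with the hairpins and 114, 110.5 and 110.4 CPM in Soft, the latter at the level of Control (108 ± 4.56 CPM, SD, n = 3; log2 fold change 1.08 with SE 0.13, adjusted p = 2.0e-04, edgeR). TOP2A, the topoisomerase that untangles chromosomes, was at 126, 166 and 126 CPM against 302, 271 and 305 CPM (log2 fold change 1.07 with SE 0.13, adjusted p = 2.5e-04, edgeR). The mitotic cyclin CCNB2 was at 21.4, 27.2 and 21.2 CPM against 59.3, 51.8 and 56.1 CPM (log2 fold change 1.26 with SE 0.12, adjusted p = 8.5e-05, edgeR), and CCNB1 at 43.7, 62.8 and 47.2 CPM against 95.1, 87.4 and 92.7 CPM (log2 fold change 0.84 with SE 0.14, adjusted p = 0.001, edgeR). In each of these genes hairpin #2 was the highest of the knockdown libraries and still below every Soft library. The mitotic kinase gene CDK1 overlapped (33.7, 38.7 and 29.8 CPM and 39.4, 37.6 and 39.2 CPM, 95% interval of the log2 fold change -0.08 to 0.45), with both conditions below Control (66.4 ± 4.68 CPM, SD, n = 3). MKI67 was higher in Soft (0.79, adjusted p = 0.0028, edgeR), a call lost without Soft replicate 2 or 3 (adjusted p = 0.013 and 0.015).

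In S phase the lower genes included CCNE2, the cyclin that starts DNA replication, at 13.4, 13.6 and 13.2 CPM with the hairpins and 5.52, 4.57 and 5.1 CPM in Soft (log2 fold change -1.41 with SE 0.14, adjusted p = 1.0e-04, edgeR). Its level in Control was 26 ± 3.81 CPM (SD, n = 3), above both. CDC6, which loads the replicative helicase, was at 38.7, 35.2 and 42.1 CPM against 24.9, 23.3 and 24.5 CPM (-0.67, adjusted p = 6.1e-04, edgeR). The helicase subunit MCM2 and the transcription factor E2F1 were not called, with log2 fold changes of 0.16 (95% interval -0.06 to 0.38) and -0.10 (-0.36 to 0.16). Of 19 tested genes for cyclins, CDKs, their inhibitors and the RB family 5 were higher and 8 lower in Soft. CCND1, cyclin D1, was at 1086, 1653 and 954 CPM against 489, 554 and 504 CPM, both below Control (2377 ± 35.9 CPM, SD, n = 3; log2 fold change -1.26 with SE 0.20, adjusted p = 8.2e-04, edgeR). Its partner kinase CDK6 was at 172, 183 and 225 CPM against 30.1, 29.8 and 30.6 CPM, with Control between them (121 ± 10.2 CPM, SD, n = 3; log2 fold change -2.68 with SE 0.13, adjusted p = 3.3e-06, edgeR). The inhibitor CDKN1C (p57) was the reverse of CDKN1A, at 0.368, 0.434 and 0.741 CPM with the hairpins and 3.47, 3.14 and 3.44 CPM in Soft (log2 fold change 2.70 with SE 0.34, adjusted p = 2.7e-04, edgeR), a call lost with limma voom (adjusted p = 0.028).

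Promoters of G2/M genes commonly hold CCAAT boxes and a cell cycle homology region. Repression outside G2 and mitosis acts through the homology region. RefSeq promoters of GRCh38.p14, 250 bases before to 50 after the start, were at hand for 47 of the 56 G2/M genes. CCAAT on either strand occurred in 33 of these 47 (70.2%), against 35.7% of all 27305 promoters, and TTTGAA in 32 (68.1%), against 15.4%. Of the 23 genes called higher in Soft that had a promoter 19 held CCAAT and 15 held TTTGAA. The promoters of PLK1 (chr16:23678639-23678938, plus strand) and TOP2A (chr17:40417847-40418146, minus strand) are shown because they are the first 2 of the list's anchor genes by adjusted p, with every CCAAT and TTTGAA, or their reverse complements, in capitals.
PLK1: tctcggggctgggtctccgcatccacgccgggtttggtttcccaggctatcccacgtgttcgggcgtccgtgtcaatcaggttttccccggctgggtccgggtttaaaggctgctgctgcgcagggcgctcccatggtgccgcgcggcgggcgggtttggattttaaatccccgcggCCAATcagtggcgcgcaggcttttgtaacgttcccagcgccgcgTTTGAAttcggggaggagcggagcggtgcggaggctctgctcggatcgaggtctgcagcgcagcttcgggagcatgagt
TOP2A: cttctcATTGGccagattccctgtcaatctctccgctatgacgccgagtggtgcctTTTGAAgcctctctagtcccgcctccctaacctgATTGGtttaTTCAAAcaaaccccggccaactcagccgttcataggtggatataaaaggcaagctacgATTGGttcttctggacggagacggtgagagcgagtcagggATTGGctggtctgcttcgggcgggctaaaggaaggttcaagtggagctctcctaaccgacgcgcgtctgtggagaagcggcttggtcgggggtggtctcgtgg
PLK1 thus held 1 match of each and TOP2A 4 of CCAAT and 2 of TTTGAA. For S phase genes the E2F letters TTCCCGC were in 19 of 36 promoters (52.8%), against 6.6% of all. A match describes the letters only.

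Several replication-dependent histones were lower in Soft. Of the 58 members 41 did not pass the filter on low counts, and among the 17 that did 10 were lower in Soft and 0 higher, with a median of -2.22. The linker histone gene HIST1H1C was at 52.9, 49.8 and 20.4 CPM with the hairpins, 23.6 ± 1.42 CPM in Control (SD, n = 3) and 8.8, 10.6 and 7.96 CPM in Soft (log2 fold change -2.17 with SE 0.32, adjusted p = 5.7e-04, edgeR). HIST1H2BK was at 135, 198 and 117 CPM, 82.2 ± 1.77 (SD, n = 3) and 24.9, 22.5 and 22.3 CPM (log2 fold change -2.69 with SE 0.19, adjusted p = 1.8e-05, edgeR). HIST1H2BJ was at 8.66, 5.73 and 4.15 CPM, 1.46 ± 0.271 (SD, n = 3) and 0.638, 0.333 and 0.179 CPM (log2 fold change -3.99 with SE 0.43, adjusted p = 1.4e-04, edgeR). In HIST1H1C, as in HIST1H2AC (25.3, 22.6 and 9.39 CPM against 4.47, 3.19 and 4.6 CPM), hairpin #3 lay below every Control library and above every Soft library. These transcripts normally end without a poly(A) tail, and the part of poly(A) selection in their levels was not tested. Members of this family share much of their sequence, and the near-identical copies HIST2H4A and HIST2H4B, chosen here after their values were seen, had log2 fold changes of 6.82 and -3.57 without a call, so single members are uncertain.

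Cytosolic heat shock genes, many of them targets of HSF1 that refold damaged proteins, were lower in Soft in 13 of 22 cases and higher in 0. Their median was -0.99, with -1.21 against hairpin #1, -0.70 against hairpin #2 and -0.51 against hairpin #3. DNAJB4, a co-chaperone, was even over the hairpins, at 71.6, 61.6 and 67.8 CPM, and was at 12.6, 10.9 and 11.8 CPM in Soft, with 51.3 ± 6.33 CPM in Control (SD, n = 3; log2 fold change -2.51 with SE 0.13, adjusted p = 4.1e-06, edgeR). HSPH1, a HSP110 chaperone, was at 551, 366 and 348 CPM against 188, 174 and 189 CPM, with Control near Soft (202 ± 7.41 CPM, SD, n = 3; log2 fold change -1.20 with SE 0.17, adjusted p = 5.2e-04, edgeR). HSPA1A was at 1046, 470.3 and 349 CPM, highest with hairpin #1 as for HSPA6, against 185, 184 and 165 CPM in Soft, while Control was lower than both (95.7 ± 5.17 CPM, SD, n = 3). It was called (-1.81, adjusted p = 0.0023, edgeR), a call lost without Soft replicate 1, 2 or 3 (adjusted p = 0.012, 0.012 and 0.014), and its near-identical copy HSPA1B was not (-1.43), so the split of reads between the HSPA1 genes is uncertain. DNAJB1 was not called (-0.19, 95% interval -0.42 to 0.04) unless hairpin #1 was left out. The heat shock element letters GAANNTTC were in 9 of 19 promoters of the list (47.4%), against 6.9% of all. The RefSeq promoter of HSPA6 (GRCh38.p14, chr1:161524290-161524589, plus strand), the list member with the largest difference, is given with these letters in capitals.
HSPA6: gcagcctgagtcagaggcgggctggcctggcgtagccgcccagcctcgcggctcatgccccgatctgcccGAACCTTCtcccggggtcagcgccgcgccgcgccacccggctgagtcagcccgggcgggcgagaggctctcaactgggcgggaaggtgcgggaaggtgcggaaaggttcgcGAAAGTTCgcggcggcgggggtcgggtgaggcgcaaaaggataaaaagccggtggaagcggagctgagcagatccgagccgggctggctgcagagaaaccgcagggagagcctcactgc
It held 2 such matches, starting 180 and 69 bases before the start of the gene.

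Many YAP/TAZ targets were lower on the soft gel. Of 24 targets 13 were lower in Soft and 1 higher, the insulin-like growth factor binding protein IGFBP3 (1.66), with a list median of -0.94 and medians of -0.70, -1.08 and -1.17 against hairpins #1, #2 and #3. Against Control the median was -0.12 in sh_PIP4K2B and -1.09 in Soft. In 17 of the 24 every Soft library lay below every hairpin library, and in 2 above. CTGF, a secreted matricellular protein, was at 634, 884 and 979 CPM with the hairpins and 153, 165 and 163 CPM in Soft, below 1391 ± 10.4 CPM in Control (SD, n = 3; log2 fold change -2.37 with SE 0.17, adjusted p = 1.8e-05, edgeR). ANKRD1, a nuclear ankyrin repeat protein, was at 580.2, 1342 and 668 CPM against 99, 127 and 115 CPM, with hairpin #2 above Control (1232 ± 17.2 CPM, SD, n = 3; log2 fold change -2.93 with SE 0.30, adjusted p = 1.0e-04, edgeR). CYR61, the relative of CTGF, was at 941, 786 and 611 CPM against 234, 237 and 226 CPM, with the hairpins on both sides of Control (758 ± 4.15 CPM, SD, n = 3; log2 fold change -1.74 with SE 0.16, adjusted p = 5.4e-05, edgeR). AMOTL2, which holds YAP in the cytoplasm, was at 204, 229 and 170 CPM against 72.5, 74.1 and 75.2 CPM (log2 fold change -1.44 with SE 0.12, adjusted p = 4.3e-05, edgeR). F3, tissue factor, was at 559, 309.9 and 424 CPM against 105, 112 and 103 CPM (log2 fold change -2.01 with SE 0.19, adjusted p = 7.9e-05, edgeR). GADD45A was at 87.8, 193 and 272 CPM against 31.2, 37.1 and 32.2 CPM (-2.46, adjusted p = 4.0e-04, edgeR). LATS2, a kinase that restrains YAP, was also lower in Soft (-1.41), a call lost without Soft replicate 1, 2 or 3 (adjusted p = 0.013, 0.012 and 0.011). AXL, a receptor kinase, was not called, with 717, 797 and 699.5 CPM and 663, 667 and 667 CPM (95% interval of the log2 fold change -0.39 to 0.09).

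**Figure D3:**
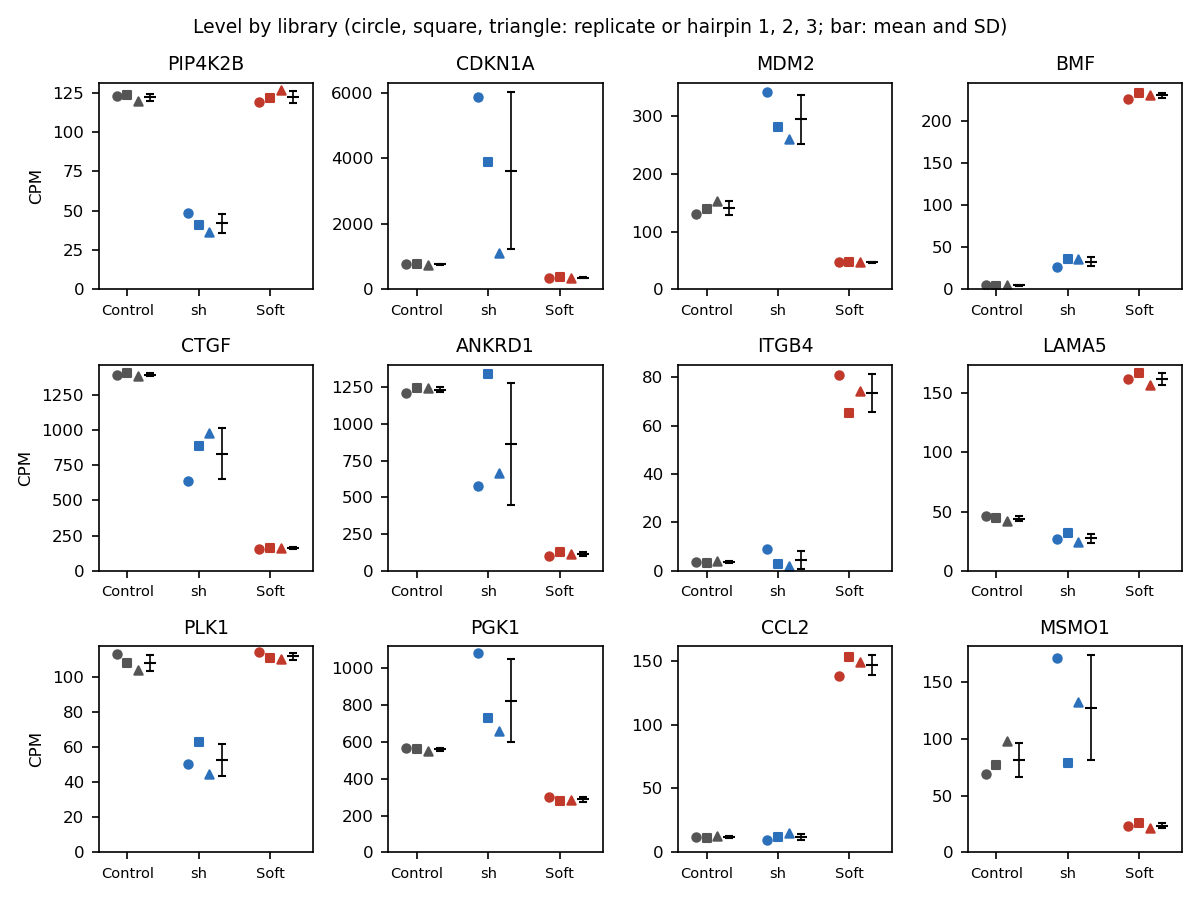
Levels of 12 genes in CPM in the 9 libraries, with the mean and SD of each condition (n = 3); in sh_PIP4K2B the circle, square and triangle are hairpins #1, #2 and #3, and each y axis starts at 0. For CTGF, ANKRD1, MDM2, PGK1 and MSMO1 every Soft library lies below every hairpin library, and for PIP4K2B, BMF, ITGB4, LAMA5, PLK1 and CCL2 above.

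The TEAD letters GGAATG occurred on either strand in 7 of the 18 promoters at hand for this list (38.9%), against 14% of all, and in 5 of the 9 of genes called lower in Soft. The promoters of CTGF (listed as CCN2, GRCh38.p14 chr6:131951323-131951622, minus strand) and ANKRD1 (chr10:90921038-90921337, minus strand) are printed with GGAATG in capitals, as those of the anchor genes with a match and the smallest adjusted p.
CTGF: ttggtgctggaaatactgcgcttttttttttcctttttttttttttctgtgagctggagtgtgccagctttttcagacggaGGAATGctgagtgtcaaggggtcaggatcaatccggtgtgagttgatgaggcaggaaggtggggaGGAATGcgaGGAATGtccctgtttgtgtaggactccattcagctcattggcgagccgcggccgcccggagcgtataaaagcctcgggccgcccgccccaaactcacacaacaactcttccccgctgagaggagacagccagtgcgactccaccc
ANKRD1: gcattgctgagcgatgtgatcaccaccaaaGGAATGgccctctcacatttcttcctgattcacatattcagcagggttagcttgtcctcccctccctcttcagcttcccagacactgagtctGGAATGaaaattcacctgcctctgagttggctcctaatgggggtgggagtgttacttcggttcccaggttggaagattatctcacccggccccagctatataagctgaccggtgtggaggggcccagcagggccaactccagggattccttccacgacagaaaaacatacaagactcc
CTGF held 3 matches and ANKRD1 2, all on the strand of the gene.

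Of 41 tested contractile and actin genes, many of them targets of SRF, 4 were lower in Soft, 2 higher and 35 not called (14.6% called, against 30.0% of all genes), with a median of -0.13. The medians against the hairpins ranged from 0.38 with hairpin #1 to -0.39 with hairpin #2, so the direction depended on the hairpin. TAGLN, an actin-binding protein of smooth muscle, was at 402, 1303 and 669.8 CPM with the hairpins, 354, 327 and 331 CPM in Soft and 1392 ± 23.1 CPM in Control (SD, n = 3). Hairpin #1 lay near Soft and hairpin #2 near Control, and TAGLN was not called over the 3 hairpins with edgeR but was called lower without hairpin #1 (adjusted p = 6.1e-04), by DESeq2 (adjusted p = 0.00085) and by limma voom (adjusted p = 0.0035). TPM1, a tropomyosin, was at 559, 2097 and 1270.2 CPM against 836, 849 and 818 CPM, with hairpin #1 below Soft and the others above, and was called lower without hairpin #1 (adjusted p = 0.0014) but in no other fit. SMTN, smoothelin, was lower in Soft than with every hairpin (206, 252 and 349 CPM against 119, 124 and 121 CPM; log2 fold change -1.15 with SE 0.17, adjusted p = 7.3e-04, edgeR), and the non-muscle myosin MYH10 was higher (64.9, 70.9 and 86.4 CPM against 135, 143 and 145 CPM; log2 fold change 0.93 with SE 0.12, adjusted p = 2.8e-04, edgeR). The CArG box, the binding motif of SRF (CC, 6 bases of A or T, GG), was in 9 of 37 promoters of the list (24.3%), against 1.3% of all.

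Adhesion and matrix genes that were called were mainly higher in Soft. Of 33 tested integrin and laminin genes 9 were higher and 2 lower (33.3% called), and of 39 tested genes for collagens and their crosslinkers 10 were higher and 1 lower (28.2%). Both shares were near the 30.0% of all genes. ITGB4, the integrin of hemidesmosomes, was at 8.98, 2.65 and 1.88 CPM with the hairpins, 3.62 ± 0.366 CPM in Control (SD, n = 3) and 80.7, 65.4 and 74.4 CPM in Soft (log2 fold change 4.02 with SE 0.48, adjusted p = 2.1e-04, edgeR). LAMA5, a laminin chain of basement membranes, was at 26.9, 31.7 and 24.1 CPM, 44.1 ± 1.9 (SD, n = 3) and 162, 167 and 156 CPM (log2 fold change 2.55 with SE 0.12, adjusted p = 3.3e-06, edgeR). ITGA10, a collagen receptor subunit, was at 5.29, 4.91 and 9 CPM against 65.5, 74.5 and 72.2 CPM (log2 fold change 3.47 with SE 0.23, adjusted p = 1.5e-05, edgeR). The abundant subunit ITGA3 overlapped, at 1890.3, 2871 and 2090 CPM against 2390.5, 2474 and 2381 CPM (95% interval of the log2 fold change -0.29 to 0.45). Among collagens COL3A1 was at 0.553, 0.53 and 0.494 CPM against 4.88, 4.29 and 4.34 CPM (log2 fold change 3.08 with SE 0.22, adjusted p = 2.0e-05, edgeR), while COL1A1, which is far more abundant, overlapped (174, 388 and 238 CPM against 245, 271 and 252 CPM; -0.06, 95% interval -0.60 to 0.48). P4HA3, a collagen prolyl hydroxylase, was at 1.2, 1.69 and 4 CPM against 19.6, 21.4 and 20.2 CPM (log2 fold change 3.16 with SE 0.35, adjusted p = 1.6e-04, edgeR).

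Matrix proteases and their inhibitors were called in both directions, 8 of 29 higher in Soft and 5 lower (44.8% called). ADAMTS1, a metalloproteinase, was at 424, 473 and 289 CPM against 68.8, 98.6 and 79.6 CPM (log2 fold change -2.26 with SE 0.20, adjusted p = 5.4e-05, edgeR), and MMP11 the reverse, at 1.47, 6.89 and 4.65 CPM against 31.6, 28.8 and 28.1 CPM (log2 fold change 2.77 with SE 0.42, adjusted p = 7.4e-04, edgeR). The collagenase MMP1 was at 4.51, 0.867 and 3.11 CPM with the hairpins and at 0.182, 0 and 0.134 CPM in Soft, close to Control (0.239 ± 0.0349 CPM, SD, n = 3).

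Of 12 tested genes of the EGF receptor family and its ligands 3 were lower in Soft and 2 higher (41.7% called, against 30.0% of all genes). All 3 lower genes were ligands. HBEGF was at 49.9, 144 and 126 CPM against 17.9, 22.6 and 19.3 CPM (log2 fold change -2.42 with SE 0.33, adjusted p = 4.1e-04, edgeR), NRG1 at 14, 56.1 and 34.8 CPM against 6.34, 6 and 6.21 CPM (log2 fold change -2.50 with SE 0.40, adjusted p = 0.001, edgeR) and AREG at 4.79, 10.6 and 21.3 CPM against 1.19, 1.48 and 1.3 CPM (log2 fold change -3.21 with SE 0.49, adjusted p = 7.1e-04, edgeR). The 2 higher genes were the ligand EGF (1.22, chosen after its value was seen), whose call was lost without Soft replicate 1, 2 or 3 (adjusted p = 0.017, 0.015 and 0.012), and LRIG1, which turns the receptor down. LRIG1 was at 65.7, 49.1 and 99.6 CPM against 182, 179.5 and 179 CPM (log2 fold change 1.34 with SE 0.21, adjusted p = 9.8e-04, edgeR), and EGFR itself overlapped (0.07, 95% interval -0.40 to 0.54). In the TGF-beta and BMP list 6 of 38 were higher and 7 lower (34.2% called, near the 30.0% of all genes). TGFB1, the ligand, was at 135, 256 and 245 CPM with the hairpins and 679, 620.4 and 622 CPM in Soft (log2 fold change 1.59 with SE 0.21, adjusted p = 3.9e-04, edgeR), and BMP6 at 1.75, 2.26 and 1.33 CPM against 13.9, 11.4 and 11.3 CPM (log2 fold change 2.77 with SE 0.22, adjusted p = 3.5e-05, edgeR). The ligand trap FST was lower in Soft (57.1, 78.3 and 77.3 CPM against 13.5, 17.5 and 16.8 CPM; log2 fold change -2.16 with SE 0.16, adjusted p = 2.4e-05, edgeR), as was the ubiquitin ligase SMURF2 (209.6, 126 and 311 CPM against 40.4, 45 and 46.4 CPM; -2.30, adjusted p = 2.1e-04, edgeR). In the Wnt and Notch list 8 of 36 were higher and 3 lower (30.6% called). The ligand WNT7B was at 1.47, 2.31 and 0.593 CPM against 16.8, 14.4 and 14.8 CPM, the receptor NOTCH3 at 1.47, 1.11 and 2.22 CPM against 8.76, 7.43 and 7.87 CPM, and the secreted Wnt inhibitor DKK1 the reverse, at 60, 78.8 and 71.9 CPM against 14.9, 18.5 and 13.7 CPM (log2 fold changes 3.39, 2.32 and -2.16, adjusted p = 1.3e-04, 1.4e-04 and 1.6e-05, edgeR). Immediate early factors (AP-1 and EGR) were called in 6 of 24 cases (25.0%), 2 higher and 4 lower, among them FOSL1 (268, 281 and 379 CPM against 155, 174 and 167 CPM; -0.91, adjusted p = 8.2e-04, edgeR). ERK feedback genes were called in 7 of 21 (33.3%), 3 higher and 4 lower, and the ERK phosphatase DUSP6 was not (-0.17, 95% interval -0.59 to 0.25).

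**Figure D4:**
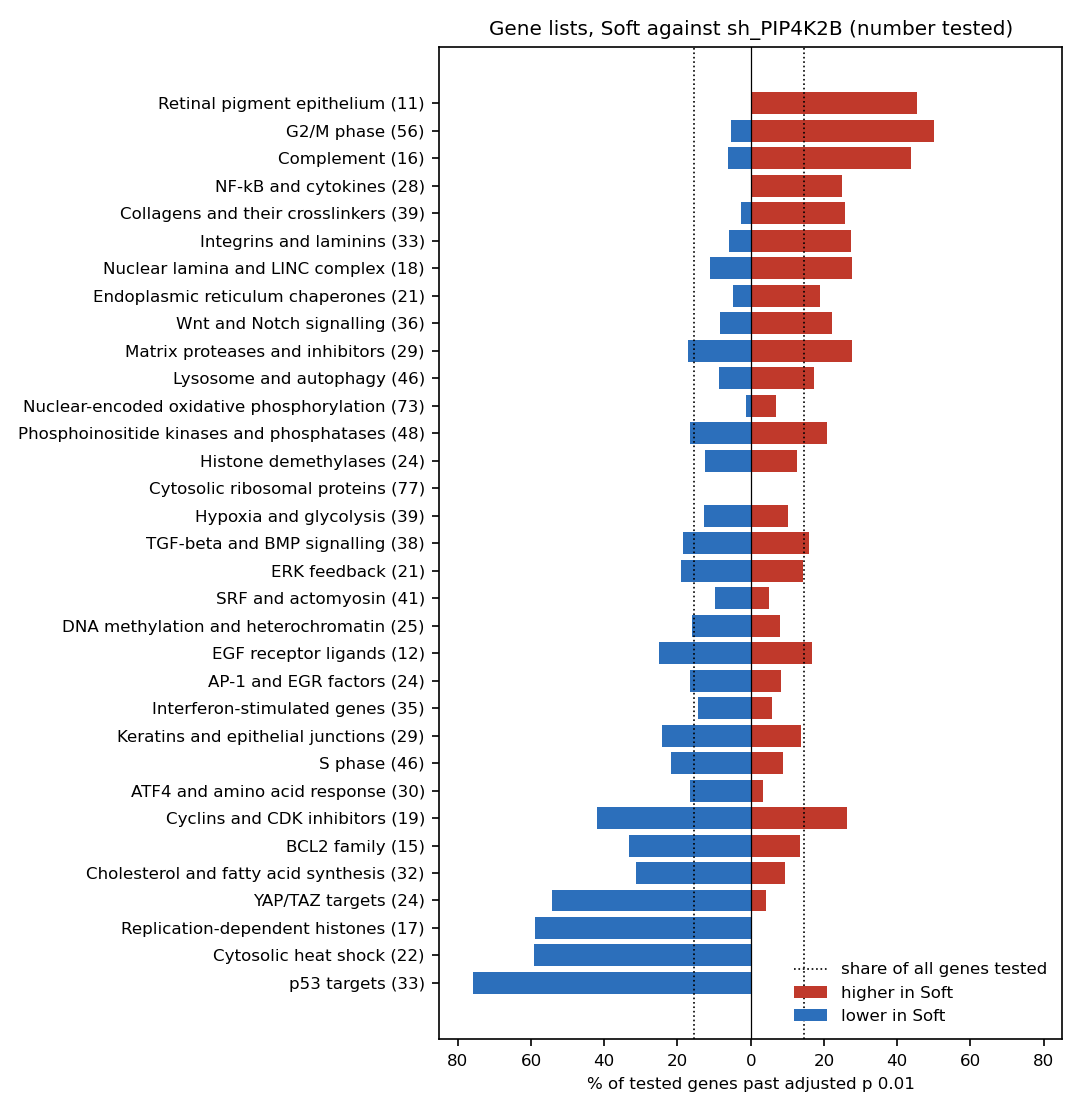
Share of the tested genes of each of 33 lists (number tested in parentheses) that passed an adjusted p of 0.01 (edgeR), lower in Soft to the left in blue and higher to the right in red. Dotted lines mark the shares among all 13784 genes, 15.5% lower and 14.5% higher; p53 targets, heat shock genes, histones and YAP/TAZ targets reach far past the left line, and pigment epithelium, G2/M and complement genes past the right.

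Part of the sterol pathway was lower on the soft gel. Of 32 tested SREBP targets 10 were lower in Soft and 3 higher, with a median of -0.33. Enzymes of the sterol pathway made up most of the lower group. MSMO1, a sterol oxidase, was at 172, 78.9 and 133 CPM with the hairpins, 81.7 ± 15 CPM in Control (SD, n = 3) and 22.9, 26.1 and 21.8 CPM in Soft (log2 fold change -2.44 with SE 0.27, adjusted p = 1.4e-04, edgeR). IDI1, the isopentenyl diphosphate isomerase, was at 126, 36.6 and 92.3 CPM against 18.3, 20.1 and 15.8 CPM (log2 fold change -2.23 with SE 0.37, adjusted p = 0.0012, edgeR). In MSMO1 and IDI1 hairpin #2 was the lowest of the 3 and still above Soft. STARD4, a sterol carrier, was at 53.5, 40.4 and 95.8 CPM against 11.6, 10.5 and 12.5 CPM (log2 fold change -2.45 with SE 0.29, adjusted p = 2.1e-04, edgeR). The 3 higher genes, chosen for mention after their values were seen, were the fatty acid desaturases FADS1 (0.95) and FADS2 (0.76) and the acetyl-CoA synthetase ACSS2 (1.03). The call was lost for FADS1 without Soft replicate 1, 2 or 3 (adjusted p = 0.013, 0.014 and 0.017) or hairpin #3 (adjusted p = 0.011), and for ACSS2 without Soft replicate 1, 2 or 3 (adjusted p = 0.02, 0.022 and 0.025) or Control replicate 1, 2 or 3 (adjusted p = 0.011, 0.013 and 0.012) or hairpin #2 or #3 (adjusted p = 0.019 and 0.019). The letters of the sterol regulatory element, TCACNCCAC, were in 1 of 26 promoters (3.8%), against 1.1% of all.

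Targets of HIF1 and enzymes of glycolysis were called in 9 of 39 cases (23.1%, against 30.0% of all genes), 4 higher in Soft and 5 lower, and the median of the list was 0.01. VEGFA, the angiogenic growth factor, was at 175, 229 and 239.8 CPM with the hairpins, 123 ± 2.23 CPM in Control (SD, n = 3) and 975, 1098 and 1044 CPM in Soft (log2 fold change 2.27 with SE 0.14, adjusted p = 1.0e-05, edgeR). PGK1, a glycolytic kinase, went the other way, at 1079.5, 731 and 660.1 CPM against 300.2, 277 and 284 CPM around 559 ± 7.36 CPM in Control (SD, n = 3; log2 fold change -1.52 with SE 0.18, adjusted p = 1.9e-04, edgeR). BNIP3L, a receptor for mitochondrial removal, was at 171, 234 and 235 CPM against 101, 87.3 and 91.4 CPM (log2 fold change -1.19 with SE 0.16, adjusted p = 3.9e-04, edgeR). LDHA, which makes lactate, was not called (0.18, 95% interval -0.10 to 0.47). The hypoxia response element letters ACGTG were in 16 of 35 promoters (45.7%), against 21.6% of all. Among nuclear-encoded subunits of oxidative phosphorylation 5 of 73 were higher and 1 lower, and of 46 tested lysosome and autophagy genes 8 were higher and 4 lower (8.22% and 26.1% called). Of the latter CTSD, the protease cathepsin D, was at 1530.3, 1311 and 1013 CPM with the hairpins and 2740.5, 2513 and 2538 CPM in Soft (log2 fold change 1.02 with SE 0.16, adjusted p = 8.3e-04, edgeR).

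Some genes of complement and inflammation were higher in Soft. Of 16 tested complement genes 7 were higher and 1 lower, with a median of 0.95. The protease C1R was at 41.5, 34.4 and 26.5 CPM with the hairpins, 155, 135 and 144 CPM in Soft and 11.3 ± 0.3 CPM in Control (SD, n = 3; log2 fold change 2.08 with SE 0.16, adjusted p = 2.6e-05, edgeR). For C1R both conditions were thus above Control and Soft the higher. Its partner C1S was at 30.2, 42.6 and 27.4 CPM against 95.9, 86.8 and 89.8 CPM (log2 fold change 1.44 with SE 0.16, adjusted p = 1.7e-04, edgeR). Of 28 tested genes for NF-kB factors, their targets and cytokines 7 were higher in Soft and 0 lower (25.0% called). Their median was 0.50 but -0.20 against hairpin #3. CCL2, a chemokine for monocytes, was at 9.85, 12 and 14.8 CPM with the hairpins, 12 ± 0.794 CPM in Control (SD, n = 3) and 138, 153 and 149 CPM in Soft (log2 fold change 3.58 with SE 0.16, adjusted p = 2.1e-06, edgeR). BCL3, a nuclear partner of NF-kB, was at 19.3, 14.2 and 14.8 CPM against 67.3, 58.8 and 64.2 CPM (log2 fold change 1.98 with SE 0.14, adjusted p = 1.7e-05, edgeR). The neutrophil chemokine CXCL8 had the opposite direction and overlapped, with 124, 13 and 55.2 CPM against 9.99, 14.7 and 11.9 CPM, and was called lower in Soft without hairpin #2 (adjusted p = 2.7e-04), by DESeq2 (adjusted p = 0.0021), by limma voom (adjusted p = 0.0055) and without the filter on low counts (adjusted p = 0.0073). Interferon-stimulated genes were called in 7 of 35 cases (20%), 2 higher and 5 lower, with a median of -0.67 against hairpin #1 and 0.31 and 0.34 against the others. IFI6 was lower in Soft than with every hairpin (376, 316 and 151 CPM against 21.3, 20.3 and 16.6 CPM; log2 fold change -3.86 with SE 0.31, adjusted p = 3.4e-05, edgeR).

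Genes of ATF4 and the response to amino acid shortage and stress were called in 6 of 30 cases (20%, against 30.0% of all genes). Of these 1 was higher and 5 lower, and ATF4 itself was not called (0.27, 95% interval -0.05 to 0.60). SESN2, a sestrin induced by both ATF4 and p53, was at 65.1, 114 and 212 CPM against 21.2, 32 and 26 CPM (log2 fold change -2.30 with SE 0.37, adjusted p = 9.3e-04, edgeR), and ATF3 at 64.7, 19 and 42.3 CPM against 4.97, 8.81 and 6.48 CPM (log2 fold change -2.64 with SE 0.40, adjusted p = 7.2e-04, edgeR). Endoplasmic reticulum chaperones were called in 5 of 21 cases (23.8%), 4 higher and 1 lower, and the main chaperone HSPA5 overlapped (1125, 1199 and 985 CPM against 972, 1054 and 1011 CPM; 95% interval of the log2 fold change -0.39 to 0.14).

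**Figure D5:**
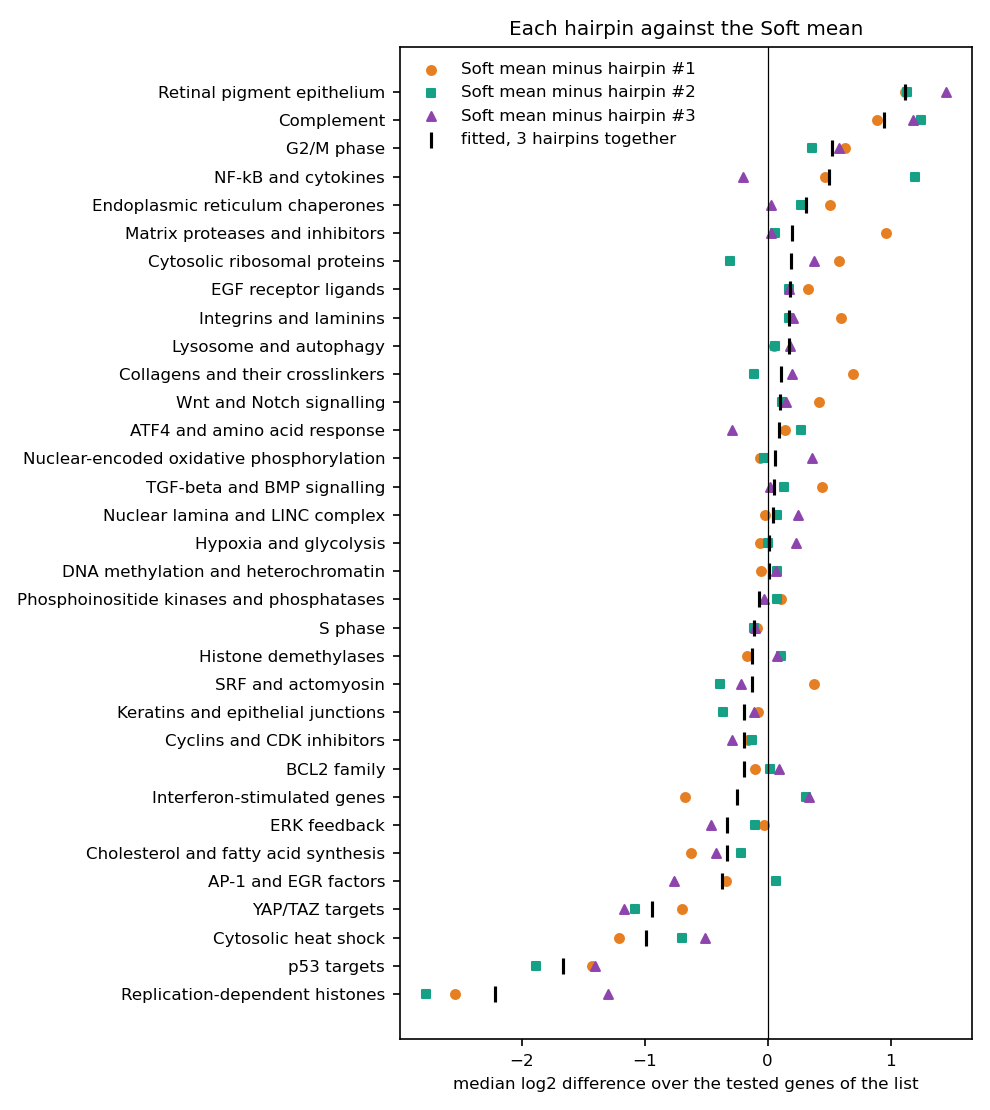
Median log2 difference over the tested genes of 33 lists, as the Soft mean minus hairpin #1, #2 or #3 and as fitted over the 3 hairpins. The medians of p53 targets, histones, heat shock genes and YAP/TAZ targets lie below 0 with each hairpin and those of G2/M, complement and pigment epithelium genes above 0, while SRF and actomyosin, interferon, NF-kB, AP-1 and ribosomal protein genes, among others, change side between hairpins.

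Identity genes of pigment epithelium were partly higher in Soft, although RPE65 and RLBP1, which define the mature cells, were near 0 in every library. Of 22 members 11 did not pass the filter on low counts, and among the 11 tested 5 were higher in Soft and 0 lower, with a median of 1.12. RPE65, the isomerase of the visual cycle, did not exceed 0.0494 CPM in any Soft or hairpin library, and RLBP1 was at 0 with the hairpins and at 0.365, 0.524 and 0.313 CPM in Soft. OTX2, a transcription factor of this epithelium, was at 16, 19.6 and 15.8 CPM with the hairpins and 37.5, 34.8 and 39.4 CPM in Soft, with 10.9 ± 0.696 CPM in Control (SD, n = 3; log2 fold change 1.12 with SE 0.12, adjusted p = 1.4e-04, edgeR). PAX6, a factor of eye development, was at 19.1, 25.1 and 20.3 CPM against 64.9, 65.2 and 62.2 CPM (log2 fold change 1.58 with SE 0.12, adjusted p = 3.2e-05, edgeR). STRA6, a retinol transporter, was at 0.23, 0.434 and 0.148 CPM against 1.82, 2.67 and 2.77 CPM (log2 fold change 3.13 with SE 0.39, adjusted p = 2.6e-04, edgeR), a call lost with limma voom (adjusted p = 0.065), and MITF was not called (-0.24, 95% interval -0.58 to 0.10). The epithelial markers looked at were KRT7, KRT8, KRT18, BEST1, RLBP1, RPE65, MITF, OTX2 and PAX6. Of these 9 markers 7 were tested, with 3 higher in Soft and 0 lower (42.9% called). Fold changes were positive for 4 and negative for 3. The summed level of the markers was 2006.6 to 2151.9 CPM in Control, 780.5 to 1194.7 CPM with the hairpins and 1035.8 to 1088.9 CPM in Soft. Keratins and junction genes were called in 11 of 29 cases (37.9%), 4 higher and 7 lower. JUP, plakoglobin, was at 49.1, 91.9 and 61.1 CPM against 489, 483 and 485 CPM (log2 fold change 2.85 with SE 0.21, adjusted p = 2.5e-05, edgeR) and the tight junction gene CLDN1 at 4.65, 17.4 and 15.4 CPM against 0.775, 0.952 and 1.16 CPM (log2 fold change -3.69 with SE 0.47, adjusted p = 2.9e-04, edgeR). Markers of other cell types were looked at as well. Those of endothelium disagreed, since PECAM1 was at 0.23, 0.0482 and 0.346 CPM with the hairpins and 4.7, 5.33 and 4.34 CPM in Soft while CDH5 was at 0 in Soft. The macrophage marker CD68 was higher in Soft (42.5, 68.5 and 80.2 CPM against 143, 143 and 148 CPM; log2 fold change 1.18 with SE 0.20, adjusted p = 0.0011, edgeR) while the leucocyte marker PTPRC was below 0.4 CPM in all these libraries. ALB and MYOD1 were below 0.3 CPM. The neuronal tubulin TUBB3 was high with hairpin #1 alone (1092, 316 and 286 CPM against 303, 270 and 274 CPM).

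In the nuclear lamina and LINC complex list 5 of 18 were higher in Soft and 2 lower (38.9% called, against 30.0% of all genes). LMNA, which codes for the A-type lamins, was at 660.1, 951 and 703 CPM with the hairpins and 1405, 1458 and 1362 CPM in Soft, with 920.5 ± 36.7 CPM in Control (SD, n = 3; log2 fold change 0.87 with SE 0.15, adjusted p = 0.0015, edgeR), a call lost in a fit of the 6 libraries alone (adjusted p = 0.013). SUN2, which spans the inner nuclear membrane, was at 101, 117 and 95.7 CPM against 221, 216 and 215 CPM (log2 fold change 1.05 with SE 0.11, adjusted p = 9.3e-05, edgeR), and LBR, which tethers heterochromatin, the reverse, at 78.3, 55.6 and 84.5 CPM against 38.9, 34.3 and 37.5 CPM (log2 fold change -0.98 with SE 0.15, adjusted p = 7.6e-04, edgeR). In the list of DNA methylation and heterochromatin genes 2 of 25 were higher and 4 lower (24.0% called). UHRF1, which brings the maintenance methyltransferase to replicated DNA, was at 63.9, 72.4 and 75 CPM with the hairpins and 80.9, 75.4 and 80.3 CPM in Soft, both below Control (124 ± 1.53 CPM, SD, n = 3). The Soft libraries lay just above the hairpin libraries without a call (0.16, 95% interval -0.05 to 0.38), and DNMT1, that methyltransferase, was also not called (0.21, 95% interval -0.03 to 0.45). The H3K9 methyltransferase EHMT2 (G9a) was higher in Soft, at 31, 39.5 and 47.8 CPM against 111, 114 and 113 CPM (log2 fold change 1.51 with SE 0.15, adjusted p = 8.0e-05, edgeR), as was DNMT3A (17, 15.2 and 10.8 CPM against 33.9, 32.4 and 33.5 CPM; log2 fold change 1.21 with SE 0.17, adjusted p = 4.2e-04, edgeR). Of 24 histone demethylases 3 were higher and 3 lower (25.0% called). KDM6B, which removes H3K27 methylation, was at 74.2, 42.6 and 62.2 CPM against 52.1, 55.3 and 53.8 CPM (-0.15, 95% interval -0.54 to 0.24), both above Control (15.3 ± 0.598 CPM, SD, n = 3).

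Phosphoinositide kinases, phosphatases and phospholipases other than the targeted gene were also called, 10 of 48 higher in Soft with PIP4K2B included and 8 lower (37.5% called, against 30.0% of all genes). The lower genes ran from a log2 fold change of -2.83 for INPP5D to -0.54 for PIK3CB, both chosen after their values were seen. The call was lost for INPP5D without Soft replicate 1 or 3 (adjusted p = 0.01 and 0.011), and for PIK3CB without Soft replicate 1, 2 or 3 (adjusted p = 0.011, 0.011 and 0.015). The lower genes also included PIP5K1A, a kinase that makes phosphatidylinositol 4,5-bisphosphate. PIP5K1A was at 146, 149.9 and 110.2 CPM with the hairpins and 81.8, 84 and 83.7 CPM in Soft, with 124 ± 3.93 CPM in Control (SD, n = 3; log2 fold change -0.70 with SE 0.12, adjusted p = 0.0017, edgeR), a call lost without Soft replicate 1 or 3 (adjusted p = 0.011 and 0.01) and in a fit of the 6 libraries alone (adjusted p = 0.012). Of the higher genes the rule named those with the largest fold changes. SYNJ2, a phosphatase of phosphatidylinositol 4,5-bisphosphate, was at 73.6, 108 and 104 CPM with the hairpins, 112 ± 0.831 CPM in Control (SD, n = 3) and 301, 329 and 316 CPM in Soft (log2 fold change 1.73 with SE 0.15, adjusted p = 4.2e-05, edgeR). PLCD1, a phospholipase that cleaves the same lipid, was at 3.32, 2.89 and 2.27 CPM against 14.3, 12.9 and 14.7 CPM (log2 fold change 2.30 with SE 0.17, adjusted p = 2.7e-05, edgeR). PIK3C2B, a class II kinase, was at 1.38, 2.5 and 1.14 CPM against 6.29, 6.24 and 6.44 CPM (log2 fold change 1.91 with SE 0.27, adjusted p = 5.2e-04, edgeR). In SYNJ2, PLCD1 and PIK3C2B every Soft library lay above every library on glass, while PIP4K2B was at the Control level.

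Many genes differed little between the conditions. For 7255 of the 13784 genes the 95% interval of the difference lay inside a 2-fold change. This count was made whether or not a gene was called, so it does not show equal levels. None of the 77 cytosolic ribosomal protein genes was called by edgeR, although their medians were 0.58, -0.31 and 0.38 against hairpins #1, #2 and #3. In 125 genes both conditions were at least 2-fold from Control on the same side with an adjusted p of their difference above 0.05. Among the 6 closest of these, DISC1 was above Control and RRM2 below it. RRM2, a subunit of ribonucleotide reductase, was at 173, 181 and 116 CPM with the hairpins, 164, 153 and 157 CPM in Soft and 327 ± 13.6 CPM in Control (SD, n = 3), with a 95% interval of -0.34 to 0.37 for the log2 fold change. DISC1 was at 3.36, 5.15 and 5.93 CPM, 5.15, 4.24 and 5.19 CPM and 1.05 ± 0.829 CPM (SD, n = 3) in that order of conditions, with an interval of -0.89 to 0.92. These genes were chosen for their small difference, so their intervals are a description.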

How the data were processed

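RNA of hTERT-RPE1 cells was sequenced after an Illumina Stranded mRNA ligation preparation, in 3 Soft, 3 sh_PIP4K2B and 3 Control libraries. The values are estimated counts per gene that the authors deposited in 1 table, not normalised, with 11.8 to 12.7% of values not whole. Reads were aligned with STAR to the human genome (GRCh38/hg38), and the submitters' processing notes also name Salmon. Which tool made the counts, and with which annotation, is not given in the sources used here.

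Counts were rounded. Genes with low counts were removed (filterByExpr), libraries scaled by TMM, and 1 quasi-likelihood model fitted over the 9 libraries with edgeR 4.0.16 in R 4.3.3. A prior count of 0.5 was used for log2 CPM values only. Soft minus sh_PIP4K2B was tested 2-sided with Benjamini-Hochberg adjustment over all genes tested, at a threshold of 0.01. CPM values are TMM-scaled, and means carry the SD over 3 libraries. The SE was derived as the absolute log2 fold change divided by the square root of the F statistic of the test. The 95% intervals are the log2 fold change plus or minus the t quantile times this SE. The scripts were run on simulated counts with 200 planted 2-fold changes. With 1 spread shared by the conditions, edgeR recovered 77 with 0 false calls and DESeq2 145 with 13. With the spread estimated in each condition apart, edgeR recovered 58 with 10 false calls and DESeq2 140 with 210. Under the same 2 settings limma voom recovered 78 with 1 false call and 72 with 9. In fits of the 9 libraries false calls are thus more frequent where the spread differs between conditions, above all with DESeq2. Fitted to the 6 libraries alone, edgeR recovered 10 and 0, with 0 false calls in each setting. That fit thus missed nearly all planted changes. Libraries held 19217346 to 24020799 counts, so that 3 counts, used as the floor, equal 0.131 to 0.148 CPM. Floors cover counting error only.

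The comparison and the 33 gene lists (14 to 77 members, 86 of them matched through an older symbol) were chosen with earlier results of these data known. Called means past the threshold. Genes were named by a rule: the 12 highest and 12 lowest fold changes among called genes with conditions apart and at least 50 counts on average in 1 condition, 6 a direction with Control between, the anchor genes and up to 4 called members of each list, the PIP4K2 genes, and 6 genes that moved alike. Genes outside it are marked as chosen after their values were seen, or stand where a small count had to be named. Motifs were searched in RefSeq promoters (GRCh38.p14), matched by symbol. Alternatives were DESeq2 1.42.0, limma 3.58.1 (voom with weights), other scalings, filters and thresholds, a test against a 2-fold change, the 6 libraries alone, a replicate block and leaving out each library. Hairpin sequences and some genes are not reported here.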

Additional observations from a re-analysis of the deposited data

How the results depend on the processing

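The number of genes that differed depended on the test more than on the scaling. At an adjusted p of 0.05 it was 6372 (3048 higher in Soft, 3324 lower) and at 0.001 it was 1804 (892 and 912). With only the 6 libraries of Soft and sh_PIP4K2B it was 2183 (1081 and 1102), with voom and a weight per condition 2565 (1140 and 1425), and against a 2-fold change 435 (291 and 144). Leaving out each library in turn gave 2350 to 5374 genes, 1191 to 2545 higher and 1159 to 2884 lower. The lowest counts came without Soft replicate 1, 2 or 3 (2378, 2395 and 2350), and the highest without a hairpin. DESeq2, scaling by library size or upper quartile and the filters stayed within 1.5 times of the 4135. With TMM 48.3% of the called genes were higher in Soft (1998 higher, 2137 lower), against 52.0% scaled by library size (1959 and 1809) and 55.4% by upper quartile (2288 and 1841). The cause of the differences between tests was not tested. A replicate block gave 3366 genes (1681 and 1685). Soft and sh_PIP4K2B libraries with the same number had deviations that correlated at 0.0368, 0.0405 and 0.0197, so the numbers were not taken to pair the samples.

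Of 122 called genes named, 0 changed direction and 111 kept the call without each library in turn. The call was lost for 11 with the 6 libraries alone, 11 with voom, 2 with the block, 2 with library size scaling and 51 against a 2-fold change. Among genes not called, the sign changed with 1 library left out, over a range of log2 fold changes of -1.02 to 0.13 for TP53INP1, -0.17 to 0.66 for PIP4K2A, -0.34 to 0.13 for PIP4K2C, -0.16 to 0.33 for EGFR, -0.05 to 0.28 for ITGA3, -0.35 to 0.03 for KDM6B, -0.34 to 0.08 for DUSP6, -0.30 to 0.31 for COL1A1, -0.18 to 0.13 for RRM2 and -0.20 to 0.18 for DISC1. COL1A1 was at 0.01 with upper quartile scaling and 0.02 with voom, and DISC1 at -0.02 with the block. The medians of the 12 lists at or beyond 0.3 in size kept their sign in every alternative. No alternative took a hairpin singly. Against single hairpins the NF-kB median (0.50) was -0.20 with hairpin #3. The AP-1 and EGR median (-0.37) was 0.07 with hairpin #2. On the strand of the gene alone, CCAAT was in 48.9% of G2/M promoters, against 20.8% of all promoters. The E2F letters were in 19.4% of S phase promoters on that strand, against 3.5% of all. Near the floor of 0.131 to 0.148 CPM, depth limits fold changes.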
